A study of Homo sapiens with 12 samples.

Results

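Irradiation-induced senescence was compared with proliferation in IMR90, a long-established fibroblast line from human lung, using 6 of the 12 poly(A) RNA sequencing libraries of the series. The members were taken by their labels: the 3 libraries of irradiated, senescent cells that received the solvent DMSO, called senescent cells below, and the 3 libraries of proliferating cells that received no treatment. All cells were wild type. Senescent cells had been given 20 Gy over 10 min, were treated with DMSO on days 4, 6, 8 and 10 and were harvested on day 11 after irradiation. The other 6 libraries came from equally irradiated cells given palbociclib, which blocks CDK4 and CDK6, or ruxolitinib, which blocks Janus kinases, each at 2 µM. The comparison therefore joins irradiation, the days in culture after it and exposure to DMSO, which cannot be told apart in this design. The labels do not say whether the 3 libraries of a group came from separate cultures, so p-values measure only the spread between these libraries.

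Cellular senescence is a lasting arrest of the cell cycle after DNA damage in which cells stay metabolically active, enlarge, and take on a secretory program. It is best known for interferon, cell cycle and secretory genes. Beyond these, a fibroblast is defined by the matrix it lays down, by the receptors and adhesion molecules on its surface, by its mesenchymal transcription factors and by the metabolism that supplies growth. These gene groups are described here through 55 lists of pathways and families.

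The labels were checked first on 4 genes. LMNB1 (Entrez gene 4001), which encodes the nuclear lamina protein lamin B1, had 3784, 4045 and 3905 normalized counts in the proliferating libraries and 179, 159 and 121 in the senescent libraries (log2 fold change -4.68, SE 0.14, adjusted p 2.19e-13). MKI67 (4288), a marker of cycling cells, had 13458, 10615 and 15114 in proliferating and 977, 1017 and 1038 in senescent libraries (log2 fold change -3.68, SE 0.11, adjusted p 1.37e-13). CDKN1A (1026), the cyclin-dependent kinase inhibitor p21, had 3165, 3523 and 3478 and 28501, 29824 and 29125 (log2 fold change 3.11, SE 0.06, adjusted p 4.55e-15), and GDF15 (9518), a stress-induced secreted factor, had 116, 134.2 and 114 and 4369, 4527 and 4446 (log2 fold change 5.19, SE 0.09, adjusted p 4.55e-15). The groups did not overlap for any of the 4 genes, and each stood on the side that its label implies.

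A normalized count is the authors' read count divided by a factor per library. Reads over the listed genes ranged from 17234093 to 20766998 in proliferating libraries and from 14106799 to 16503624 in senescent libraries. Tests used limma on log2(value + 1) over 11242 of 16383 genes, those with a mean of at least 10 over the 12 libraries. A gene was called at a Benjamini-Hochberg adjusted p under 0.05, and fold changes are given on this log2(value + 1) scale, on which low genes appear to change less than they did. Of the tested genes 8134 (72.4%) were called. Higher in senescent cells were 3714 genes (33%), and 4420 (39.3%) were lower. Of these, 1244 (11.1%) were at least 2-fold higher and 1010 (8.98%) at least 2-fold lower. The 2 groups did not overlap for 8443 genes (75.1%), and the median log2 fold change over all tested genes was -0.05. Counts of list members below are read against these shares, since most tested genes pass the test.

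Higher genes made up 45.7% of calls, but 64.0% after scaling libraries to 1 common total and 58.1% after scaling to a common upper quartile. The median gene then stood at 0.18 and 0.10. Where the sign of a list's median or the balance of its calls turned under another scaling, the sentence on that list says so. The first principal component over the 6 libraries held 88.9% of the variance. Among proliferating libraries the second one listed stood apart for long transcripts. When genes were ranked by transcript length and divided into 5 equal bins, it lay in the longest bin (median 5206 bases) at -0.15 on the log2 scale against the other 2 proliferating libraries, and in the shortest bin (median 739 bases) at 0.08. Senescent libraries differed from one another by at most 0.03 in any bin, and the median log2 fold change between groups ran from -0.09 in the shortest to -0.04 in the longest. Without the second proliferating library 3660 genes were higher and 4342 lower.

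**Figure D1:**
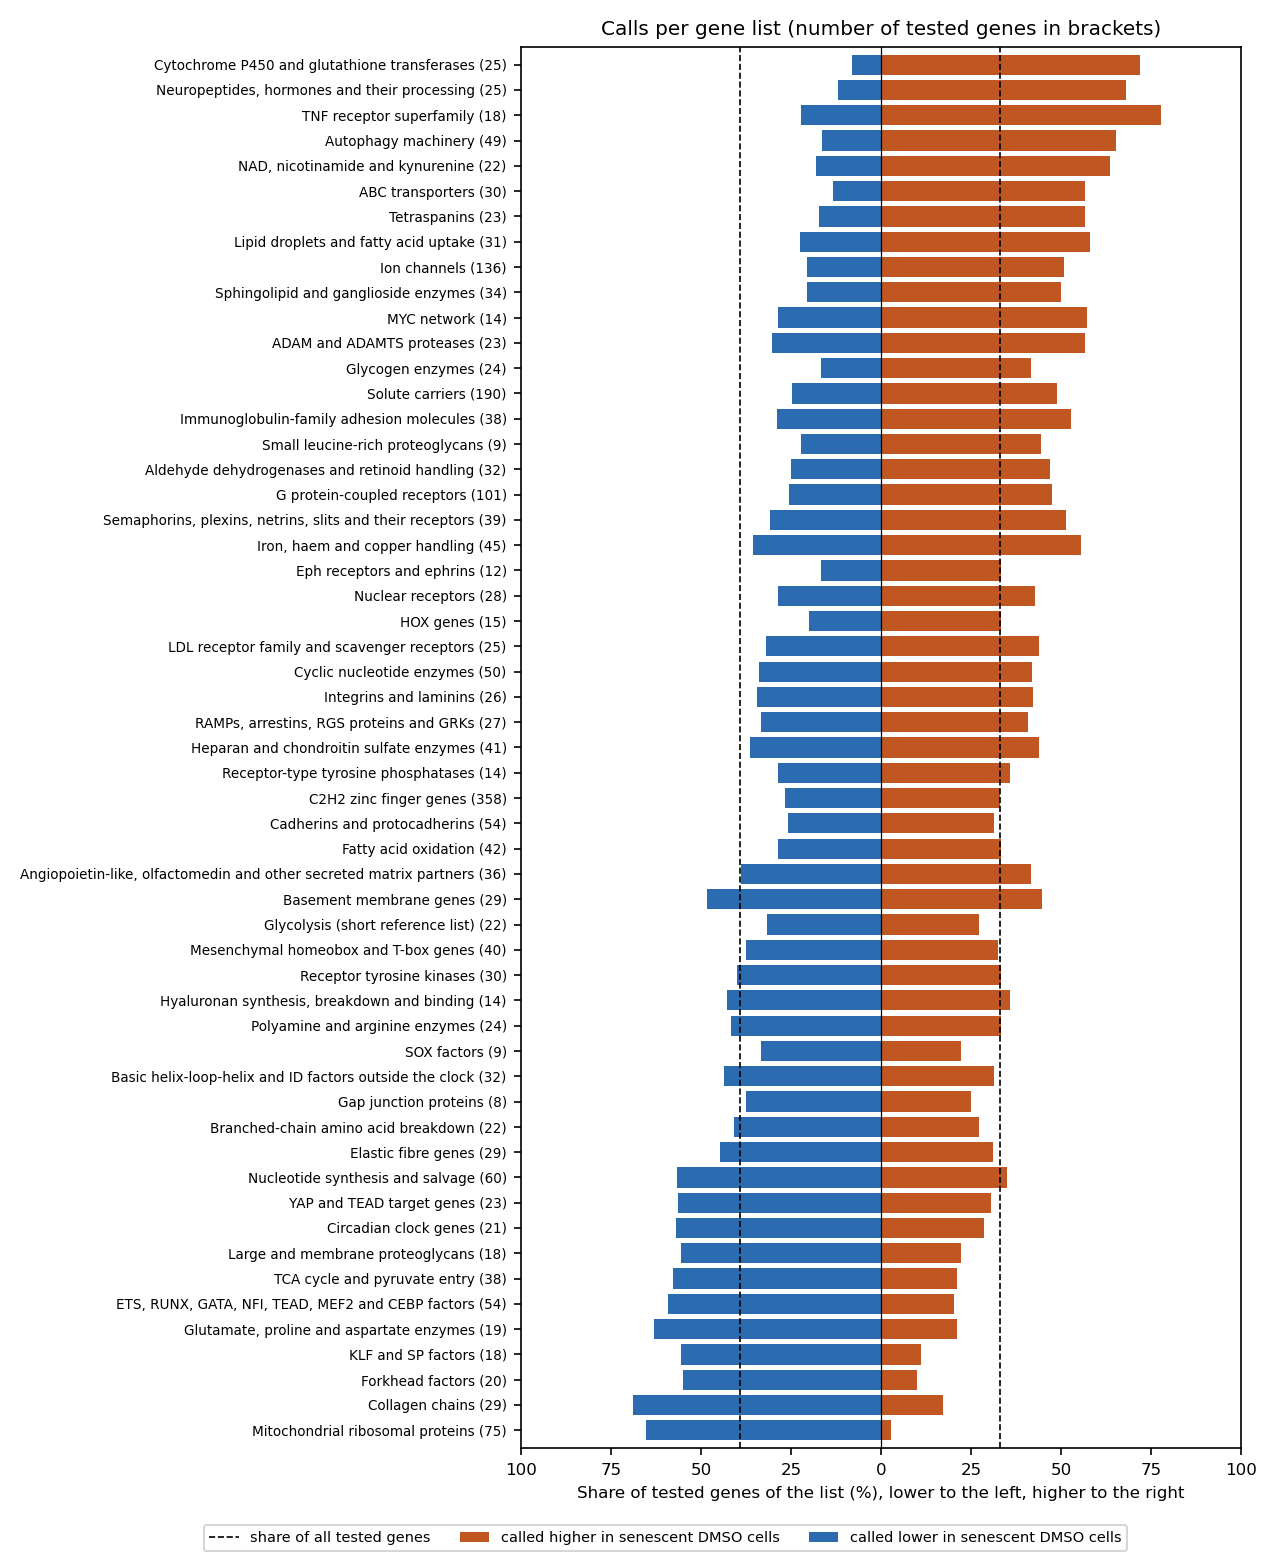
Share of the tested genes of each of 55 lists that were called higher (right, orange) or lower (left, blue) in senescent DMSO against proliferating cells, in percent, with the number of tested genes in brackets. Dashed lines mark the shares over all 11242 tested genes, 33% higher and 39.3% lower, so a list whose bars end near both lines has no more calls than any other genes.

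Cell identity was checked with marker lists. All 16 fibroblast markers were tested, 4 higher and 12 lower in senescent cells, and their summed level ranged from 831340 to 864130 normalized counts in proliferating and from 412410 to 422940 in senescent libraries. Fewer cells of a type and less RNA per cell cannot be told apart in such bulk libraries. Only 6 of 16 epithelial, 4 of 10 endothelial and 4 of 13 immune markers passed the filter. Of the epithelial markers 3 were higher and 1 was lower (2 and 2 without the third proliferating library), and their summed level ranged from 2232 to 2746 in proliferating and from 1998 to 2273 in senescent libraries. KRT19, a keratin of simple epithelia, had 94.4, 108 and 89.5 and 228, 272 and 267 (log2 fold change 1.39, SE 0.13, adjusted p 7.57e-08). The more abundant keratin KRT18 stood lower, with 1661, 2098 and 1877 in proliferating and 1242, 1319 and 1427 in senescent libraries. CLDN4 had 70.6, 74.3 and 54.3 and 49.5, 48.5 and 52.0. ABCA3, GPRC5A, EHF and LAMA3, described below, are known from epithelia too, and the part of these markers in their values was not tested. Of the endothelial markers 2 were higher and 0 lower, and their summed level ranged from 1730.1 to 1977 and from 2433 to 2588. KRT5, SFTPC, NKX2-1, CD3E and CD3D were at 0 in all 6 libraries. The 4 tested immune markers were CD4, CD14, CD68 and CSF1R. CD14 and CSF1R too had means under 10 in proliferating cells and passed the filter through the irradiated groups, so the count of higher immune markers is no result. CSF1R passed the test only narrowly (1.08, adjusted p 0.0297) and missed the threshold when any of 5 of the 6 libraries was left out (adjusted p 0.0535 to 0.0764). PTPRC, the pan-leukocyte marker, stayed at or below 9.90 normalized counts in each library. Of 9 tested smooth muscle and pericyte markers, 6 were lower and 1 was higher. ACTA2, smooth muscle actin, had 15834, 14911 and 15565 normalized counts in proliferating and 4789, 5132 and 5306 in senescent libraries (log2 fold change -1.61, SE 0.06, adjusted p 1.92e-12).

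Outside the interferon, cell cycle and secretory lists, the largest increases were in genes of very different function. PDE4C (5143), a phosphodiesterase that degrades cyclic AMP, had 5.19, 4.44 and 1.90 normalized counts in proliferating libraries and 251, 201.2 and 246 in senescent libraries (log2 fold change 5.66, SE 0.24, adjusted p 7.47e-12). SLC16A6 (9120), of the monocarboxylate transporter family, had 8.30, 11.1 and 2.86 and 394, 330.3 and 358 (log2 fold change 5.58, SE 0.28, adjusted p 7.07e-11). Neither gene exceeded 11.1 normalized counts in any proliferating library, and both passed the filter through the irradiated groups. WNT16 (51384), a secreted Wnt ligand, had 163, 135 and 150.4 and 2019, 1934 and 1976 (log2 fold change 3.72, SE 0.07, adjusted p 4.55e-15), and SULF2 (55959), an extracellular sulfatase that trims heparan sulfate, had 19.7, 14.4 and 9.52 and 196, 200.1 and 184 (log2 fold change 3.70, SE 0.20, adjusted p 1.98e-10). NPAS1, NR4A3, KCNJ2, LYNX1, SLC4A11, ABCA7, PGAM2 and TMOD1 were also among the 15 largest increases, with log2 fold changes between 3.37 for TMOD1 and 4.05 for NPAS1 (3.43 without the first proliferating library). PSG1 and RPLP0P2 belong there too by their values (3.49 and 4.22), but PSG1 has close paralogues and RPLP0P2 is a pseudogene copy, so reads could have been split between copies.

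Among the largest decreases, HHIP (64399), a membrane protein that binds hedgehog ligands, had 674, 552 and 690.4 normalized counts in proliferating libraries and 44.5, 58.0 and 34.7 in senescent libraries (log2 fold change -3.80, SE 0.27, adjusted p 4.37e-09). WNT7B (7477), another Wnt ligand, had 144, 124 and 180 and 10.9, 5.92 and 16.2 (log2 fold change -3.73, SE 0.46, adjusted p 2.35e-06). The 2 Wnt ligands thus moved in opposite directions, with no overlap between groups for either. CBX2, a Polycomb chromobox protein, PKN3, a kinase of the PKN family, NEURL1B, a ubiquitin ligase, CLDN11, a claudin of tight junctions, and SYNE2, the nuclear envelope protein nesprin-2, had log2 fold changes between -3.22 and -2.71. The remaining large decreases lay in matrix and channel genes, given with their families below.

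In glucose handling, single genes of glycogen storage and of the control of glucose uptake rose. PPP1R3C (5507), the subunit that brings protein phosphatase 1 to glycogen and so promotes its synthesis, had 194, 243 and 251 normalized counts in proliferating libraries and 2192, 2338 and 2249 in senescent libraries (log2 fold change 3.30, SE 0.08, adjusted p 3.15e-14). The lowest senescent library was several times the highest proliferating library. GYS1, glycogen synthase, rose from 1544 ± 23.4 to 2370.5 ± 112 (mean ± SD, n = 3; log2 fold change 0.62), and GAA, the lysosomal enzyme that degrades glycogen, from 408 ± 15.8 to 613 ± 6.84 (0.58). UGP2, which makes the UDP-glucose for glycogen and hyaluronan, fell from 2725 ± 171 to 1765 ± 72.2 (-0.63). Of 29 listed glycogen genes 24 were tested, 10 higher, 1 of them by at least 2-fold, and 4 lower, with a median of 0.09. TXNIP (10628), an arrestin-like protein that limits glucose uptake, had 2499, 2392 and 2521 in proliferating and 9639, 9621 and 9855 in senescent libraries (log2 fold change 1.97, SE 0.04, adjusted p 1.36e-14). Its relative ARRDC4 (91947) had 225, 244 and 255 and 1816, 1905 and 1807 (log2 fold change 2.93, SE 0.06, adjusted p 8.46e-15). In both genes the spread within a group was far smaller than the step between groups.

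In glycolysis, 22 of 22 listed genes were tested, 6 higher and 7 lower, with a median of -0.04. At the same total 15 were higher and 4 lower (median 0.19), and without the second proliferating library 8 and 5, so the list has no direction that holds. Single enzymes moved in both directions. ENO1 (2023), enolase, had 47010, 52663 and 48314 normalized counts in proliferating and 22672, 23630 and 23102 in senescent libraries (log2 fold change -1.09, SE 0.05, adjusted p 5.11e-11). PFKP, the platelet-type phosphofructokinase, fell from 9721 ± 293 to 3764 ± 133.9 (-1.37), and so did the lactate dehydrogenase subunits LDHA (-0.74) and LDHB (-1.02). HK2, a hexokinase, rose from 1546 ± 37.6 to 2962 ± 60.0 (0.94), and PFKFB2, which makes the activator of phosphofructokinase, from 44.3 ± 6.79 to 118 ± 9.24 (1.41). PGAM2 (5224), the muscle phosphoglycerate mutase, which is not on the list, had 13.5, 12.2 and 8.57 and 126, 135 and 121 (log2 fold change 3.39, SE 0.16, adjusted p 3.72e-11).

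The tricarboxylic acid cycle oxidises acetyl groups in mitochondria. Of 39 listed genes 38 were tested, 8 higher and 22 lower, with a median of -0.22 that became 0.01 at the same total, where 14 were higher and 11 lower. IDH2 (3418), mitochondrial isocitrate dehydrogenase, had 1832, 1994 and 1896 normalized counts in proliferating and 523, 587 and 622 in senescent libraries (log2 fold change -1.73, SE 0.08, adjusted p 1.32e-11). FH (2271), fumarase, had 1860.4, 2025 and 1973 and 795, 859 and 830.2 (log2 fold change -1.24, SE 0.05, adjusted p 1.54e-11), and CS, citrate synthase, fell from 4883 ± 166 to 3058 ± 149.5 (-0.68). All 3 decreases were larger than the shift between scalings. Genes of pyruvate entry were among the increases. PDK2, a kinase that inactivates pyruvate dehydrogenase, rose from 214 ± 13.7 to 473 ± 23.9 (1.14), and MPC2, a subunit of the mitochondrial pyruvate carrier, from 779.9 ± 3.29 to 1628 ± 97.0 (1.06). Mitochondrial ribosomal proteins, which translate the genes of the mitochondrial genome, were lower as a family. Of 75 tested, 49 were lower and 2 higher (median -0.35). At the same total the counts were 27 lower and 11 higher, with a median of -0.12. Examples were MRPL11, which fell from 579 ± 41.1 to 264 ± 12.3 (-1.13), and MRPL3, from 2101 ± 78.3 to 978 ± 64.4 (-1.10).

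**Figure D2:**
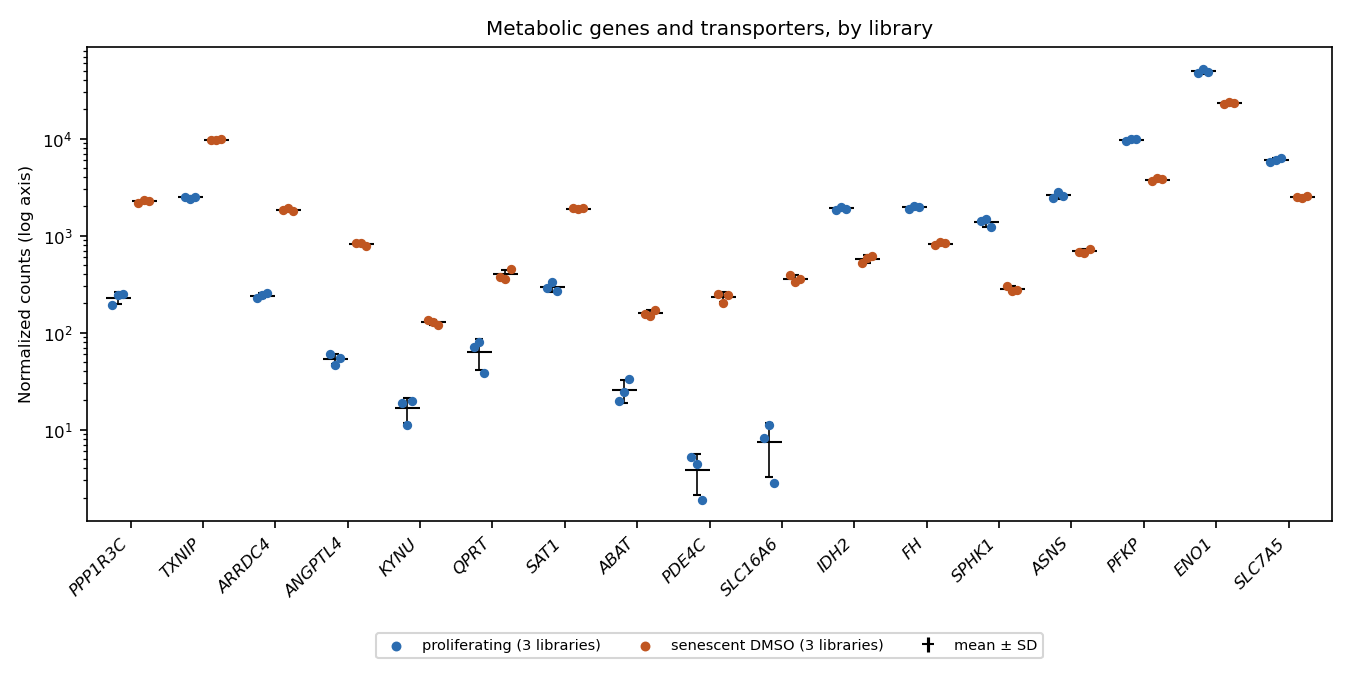
Normalized counts (log axis) of 17 metabolic genes and transporters in the 3 proliferating (blue) and 3 senescent DMSO (orange) libraries, with the mean and SD of each group as black marks. The groups do not overlap for any of the 17, with the first 10 genes higher in senescent cells and the last 7 lower.

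Genes of lipid storage were more often higher than lower. For lipid droplets and fatty acid uptake, 31 of 47 listed genes were tested, 18 higher and 7 lower (median 0.40). ANGPTL4 (51129), a secreted inhibitor of lipoprotein lipase that also stands on the secretory and p53 list, had 60.2, 46.6 and 55.2 normalized counts in proliferating and 832, 843 and 778 in senescent libraries (log2 fold change 3.90, SE 0.11, adjusted p 6.89e-14). PLIN2, a coat protein of lipid droplets, rose from 1198 ± 44.8 to 2068 ± 111 (0.79), and PNPLA2, the triglyceride lipase ATGL, from 931 ± 153 to 1706 ± 88.9 (0.88). LIPE, hormone-sensitive lipase, fell from 104 ± 4.88 to 39.5 ± 5.28 (-1.39), as did FABP5, a fatty acid-binding protein (-1.37), and AGPAT5, an acyltransferase of phospholipid synthesis (-1.79). For fatty acid oxidation 42 of 48 listed genes were tested, 14 higher and 12 lower (median 0.02), but 24 higher and 5 lower at the same total and 19 and 5 under quantile normalization. Its transport steps stood among the increases. The plasma membrane carnitine transporter SLC22A5 rose from 59.1 ± 8.41 to 138 ± 10.98 (1.22) and the mitochondrial carnitine carrier SLC25A20 from 164 ± 22.7 to 385 ± 21.1 (1.23). The dehydrogenases HADH (-1.11) and ACADM (-0.72) fell.

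Sphingolipids are membrane lipids whose products, ceramide and sphingosine 1-phosphate, also act as signals. Of 46 listed genes 34 were tested, 17 higher and 7 lower (median 0.28). SPHK1 (8877), which phosphorylates sphingosine to sphingosine 1-phosphate, had 1411, 1492 and 1223 normalized counts in proliferating and 305, 268 and 278 in senescent libraries (log2 fold change -2.27, SE 0.12, adjusted p 7.79e-11). The lysosomal enzymes ASAH1, acid ceramidase, and SMPD1, acid sphingomyelinase, rose from 919 ± 47.3 to 2033 ± 99.3 (1.14) and from 1542 ± 61.5 to 2776 ± 68.8 (0.85). SGPL1, the lyase that removes sphingosine 1-phosphate, fell from 1418 ± 32.2 to 844 ± 32.7 (-0.75). ST3GAL5, the synthase of the ganglioside GM3, rose from 193 ± 6.05 to 390.2 ± 52.0 (1.01). SPHK1 and SGPL1, which make and remove sphingosine 1-phosphate, were thus both lower, and the 2 lysosomal hydrolases both higher.

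Nucleotide synthesis was lower for 34 and higher for 21 of 60 tested genes of 65 listed (median -0.39, and -0.16 at the same total). The decreases held the enzymes that feed DNA replication, several of which also stand on the cell cycle list. RRM2 (6241), the S-phase subunit of ribonucleotide reductase, had 8952, 8798 and 9290.1 normalized counts in proliferating and 1520.4, 1615 and 1622 in senescent libraries (log2 fold change -2.51, SE 0.06, adjusted p 1.16e-14). RRM2B (50484), the p53-induced subunit and a member of the secretory and p53 list, had 679, 551 and 795 and 3473, 3408 and 3312 (log2 fold change 2.35, SE 0.10, adjusted p 1.21e-11). The 2 small subunits, which pair with the same large subunit, thus moved in opposite directions. TK1, TYMS and DTYMK fell by 1.95 to 2.75, and PFAS, an enzyme of purine synthesis, fell by 1.95 on the log2 scale. TYMP, which breaks down thymidine and stands on the interferon list, rose from 51.3 ± 10.9 to 173 ± 17.7 (1.76), and AMPD3, which deaminates AMP, from 436 ± 28.6 to 1150.2 ± 84.1 (1.40).

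Synthesis of NAD from tryptophan runs through kynurenine. Of 30 listed genes of NAD, nicotinamide and kynurenine metabolism 22 were tested, 14 higher and 4 lower (median 0.47). KYNU (8942), kynureninase, had 18.7, 11.1 and 19.997 normalized counts in proliferating and 136, 128 and 119 in senescent libraries (log2 fold change 2.91, SE 0.32, adjusted p 6.61e-07). QPRT (23475), which turns quinolinate into the NAD precursor, had 71.6, 81.0 and 38.1 and 377, 361 and 454 (log2 fold change 2.69, SE 0.20, adjusted p 5.50e-09). For both genes every senescent library stood above every proliferating library by several fold. NAMPT, the main enzyme of salvage from nicotinamide, rose from 1150.4 ± 87.4 to 1887 ± 52.8 (0.72), and NNMT, which methylates nicotinamide, fell from 731 ± 108 to 454 ± 34.4 (-0.68).

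Several genes of amino acid synthesis were lower. ASNS (440), asparagine synthetase, had 2451, 2832 and 2546 normalized counts in proliferating and 675, 662 and 725 in senescent libraries (log2 fold change -1.92, SE 0.07, adjusted p 1.13e-12). With GLUL, glutamine synthetase (-0.76), PYCR1 of proline synthesis (-0.75) and GOT1, an aspartate aminotransferase (-0.64), it belonged to the 12 of 19 tested genes of glutamate, proline and aspartate that were lower, against 4 higher (25 listed, median -0.30, and 6 against 6 at the same total). ABAT (18), which degrades the transmitter GABA, went the other way, from 19.7, 24.4 and 33.3 to 156, 149 and 172 (log2 fold change 2.61, SE 0.17, adjusted p 1.84e-09). Polyamine genes were split, with 24 of 32 listed tested, 8 higher and 10 lower, and 13 higher and 8 lower at the same total. SAT1 (6303), which acetylates spermidine and spermine for breakdown or export, had 292, 333 and 269 and 1918, 1866 and 1911 (log2 fold change 2.67, SE 0.08, adjusted p 1.46e-13). On the synthetic side SMS, spermine synthase, fell from 6929 ± 216 to 3279 ± 48.6 (-1.08) and AMD1, which supplies its aminopropyl donor, from 2878 ± 108 to 1674 ± 43.6 (-0.78). For breakdown of branched-chain amino acids, 22 of 26 listed genes were tested, 6 higher and 9 lower, none by 2-fold (median -0.16, and 8 higher against 5 lower with a median of 0.07 at the same total).

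Most of the tested drug-metabolising enzymes were higher. Only 25 of 98 listed cytochrome P450 and glutathione transferase genes were tested, since most were not expressed, and 18 of them were higher and 2 lower (median 0.72). A gene that passes the filter only through the group where it is high had to differ, so this count says nothing about the genes that did not pass. CYP1B1 (1545), a P450 of the aryl hydrocarbon receptor response, had 94.4, 96.5 and 99.0 normalized counts in proliferating and 357, 352 and 385 in senescent libraries (log2 fold change 1.90, SE 0.09, adjusted p 2.53e-11). CYP26B1 (56603), which inactivates retinoic acid, had 0, 1.11 and 1.90 and 45.5, 69.8 and 64.8. Its proliferating libraries held 3 reads or fewer each, so it was at least 19.4-fold higher against a floor of 3 reads per library (adjusted p 4.28e-09). DHRS3, a retinal reductase, rose from 71.8 ± 5.82 to 258 ± 43.4 (1.82), and CRABP2, a retinoic acid-binding protein, from 98.2 ± 21.3 to 203 ± 18.2 (1.06). In all 32 of 57 listed aldehyde dehydrogenase and retinoid genes were tested, 15 higher and 8 lower (median 0.33). The median was 0.21 without the first senescent library, and among the 25 genes with a mean of at least 50 it was 0.0079, with 10 higher and 8 lower.

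Iron, haem and copper genes numbered 45 tested of 54 listed, 25 higher and 16 lower (median 0.35). FTL (2512), the light chain of the iron store ferritin, had 17696, 20910 and 18079 normalized counts in proliferating and 33047, 33958 and 34556 in senescent libraries (log2 fold change 0.85, SE 0.07, adjusted p 3.41e-08). HMOX1, which frees iron from haem, rose from 189.5 ± 17.1 to 487 ± 11.7 (1.36), and SLC40A1, the iron exporter ferroportin, from 43.9 ± 14.4 to 91.7 ± 16.0 (1.08). TFRC, the transferrin receptor for iron uptake, fell from 3917 ± 255.8 to 2464 ± 116 (-0.67). FTL and SLC40A1, for storage and export, thus rose, and TFRC, for uptake, fell.

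Autophagy delivers cytoplasm to lysosomes. Of 51 listed genes 49 were tested, 32 higher and 8 lower (median 0.35). The increases were led by cargo receptors and membrane-coupled proteins. SQSTM1 (8878), the cargo receptor p62, had 4425, 5109 and 4405 normalized counts in proliferating and 11020, 11313 and 11278 in senescent libraries (log2 fold change 1.27, SE 0.06, adjusted p 3.50e-11). GABARAPL1 rose from 1085 ± 49.6 to 3505 ± 73.8 (1.69), MAP1LC3B from 1672 ± 49.6 to 4926 ± 173 (1.56) and NBR1 from 2141 ± 114 to 4526 ± 34.8 (1.08). MAP1LC3B has a near-identical copy with which it could share reads. The conjugation genes ATG5 (-0.51) and ATG4C (-0.54) fell by less.

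Cyclic nucleotide enzymes were split, with 50 of 67 listed tested, 21 higher and 17 lower (median 0.05). PDE4C had the largest fold change of the list. PDE11A (50940), which degrades both cyclic AMP and cyclic GMP, had 24.9, 17.7 and 10.5 normalized counts in proliferating and 157, 147 and 127 in senescent libraries (log2 fold change 3.02, SE 0.21, adjusted p 3.79e-09). PDE4B rose from 174 ± 2.14 to 357 ± 22.8 (1.03), whereas PDE3B (-1.91) and PDE7A (-1.40) fell. Members that act on the same messenger thus moved in both directions.

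Solute carriers move metabolites across membranes. Of 359 listed 190 were tested, 93 higher and 47 lower (median 0.22). Amino acid and folate importers stood among the decreases. SLC7A5 (8140), the importer of large neutral amino acids LAT1, had 5727, 5991 and 6260 normalized counts in proliferating and 2513, 2448 and 2568 in senescent libraries (log2 fold change -1.25, SE 0.05, adjusted p 2.65e-12). SLC7A1, for cationic amino acids, fell from 3656 ± 498 to 1510.5 ± 25.1 (-1.27), SLC6A9, for glycine, from 572 ± 34.99 to 231 ± 31.6 (-1.31), and SLC19A1, the reduced folate carrier, from 470 ± 21.5 to 146 ± 22.6 (-1.69). SLC6A15, another importer of neutral amino acids, rose from 67.8 ± 4.15 to 398 ± 15.1 (2.54). Next to SLC16A6, a second gene of the monocarboxylate transporter family, SLC16A4 (9122), had 171, 154 and 144 in proliferating and 970, 991 and 1021 in senescent libraries (log2 fold change 2.66, SE 0.08, adjusted p 1.17e-13).

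ABC transporters pump lipids and drugs with the energy of ATP. Of 48 listed 30 were tested, 17 higher and 4 lower (median 0.45). The increases were led by the lipid-moving A class. ABCA3 (21), known for loading surfactant lipid in the alveolar epithelium, had 8.30, 12.2 and 17.1 normalized counts in proliferating and 112, 146 and 120.3 in senescent libraries (log2 fold change 3.27, SE 0.21, adjusted p 1.08e-09), and ABCA8 and ABCA2 rose by 3.96 and 1.51. The value of ABCA8 ran from 2.77 to 4.48 over the refits, so the size of its change depended on the setting. ABCE1, which is no transporter but recycles ribosomes, fell from 3388 ± 211 to 1716 ± 37.4 (-0.98).

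Of the surface receptors, G protein-coupled receptors formed the largest family. Only 101 of 318 listed were tested, 48 higher and 26 lower (median 0.27, and 31 against 21 of 68 with a median of 0.10 at a mean of at least 50). GPRC5A (9052), an orphan receptor known from lung epithelium, had 582, 574 and 579.9 normalized counts in proliferating and 2346, 2288 and 2332 in senescent libraries (log2 fold change 2.002, SE 0.05, adjusted p 6.01e-14). HTR7 (3363), a serotonin receptor that raises cyclic AMP, had 18.7, 18.9 and 29.5 and 169, 162 and 132 (log2 fold change 2.76, SE 0.18, adjusted p 2.01e-09). Receptors for lipids changed in both directions. LPAR2, for lysophosphatidic acid, rose from 18.4 ± 4.45 to 86.1 ± 2.62 (2.20) and PTGIR, for prostacyclin, from 28.9 ± 3.23 to 111 ± 8.84 (1.91), while PTGER2 (5732), for prostaglandin E2, had 1126, 1199 and 1205 and 368, 386 and 394 (log2 fold change -1.62, SE 0.06, adjusted p 4.21e-12). EDNRA, for endothelin, fell from 1201 ± 128 to 509 ± 25.6 (-1.23) and OXTR, for oxytocin, from 873 ± 88.3 to 389 ± 14.3 (-1.16). In the developmental pathways the hedgehog transducer SMO (-1.20) and the Wnt receptor FZD2 (-1.15) fell. EDN1, the endothelin ligand, rose from 255 ± 8.96 to 533 ± 23.96 (1.06), opposite to its receptor.

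Peptide hormones and their processing enzymes, 25 tested of 56 listed, were higher for 17 and lower for 3 (median 0.65). DPP4 (1803), a surface protease that cleaves peptide hormones and chemokines, had 359, 377 and 377 normalized counts in proliferating and 1244, 1389.8 and 1354 in senescent libraries (log2 fold change 1.84, SE 0.08, adjusted p 1.51e-11). STC1, stanniocalcin, of the secretory and p53 list, rose from 3432 ± 411 to 8418 ± 211 (1.30), and AGT, angiotensinogen, from 16.8 ± 3.75 to 96.1 ± 25.8 (2.44). MME, the peptidase neprilysin, fell from 2384 ± 168 to 1413 ± 79.5 (-0.75).

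Ion channels, 136 tested of 313 listed, were higher for 69 and lower for 28 (median 0.32, and 0.21 over those with a mean of at least 50). KCNJ2 (3759), the inward rectifier Kir2.1 that sets resting potential, had 15.6, 29.9 and 21.9 normalized counts in proliferating and 239.5, 258 and 254 in senescent libraries (log2 fold change 3.47, SE 0.16, adjusted p 2.92e-11). KCNK2 (3776), the mechanosensitive potassium channel TREK-1, had 411, 394 and 433 and 56.4, 75.8 and 64.8 (log2 fold change -2.64, SE 0.14, adjusted p 1.15e-10). The 2 potassium channels thus moved in opposite directions. CACNG4 (27092), an auxiliary subunit of calcium channels and glutamate receptors, had 178, 142 and 160 and 12.9, 9.47 and 12.7 (log2 fold change -3.67, SE 0.31, adjusted p 2.98e-08). GABRB1, a GABA receptor subunit, fell from 226 ± 26.5 to 23.1 ± 4.99 (-3.25), and ANO1, a calcium-activated chloride channel, from 1805 ± 167 to 497 ± 6.22 (-1.86).

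Receptor tyrosine kinases transmit growth factor signals. Of 44 listed 30 were tested, 10 higher and 12 lower, with a median of -0.09 that became 0.14, with 12 higher and 7 lower, at the same total. AXL (558), the receptor for GAS6, had 21171, 21366 and 22532 normalized counts in proliferating and 7891, 7679.5 and 7786 in senescent libraries (log2 fold change -1.48, SE 0.04, adjusted p 1.54e-13). PDGFRB (5159), a platelet-derived growth factor receptor that marks mesenchymal cells, had 6832, 6568 and 7221 and 3275, 3398 and 3475 (log2 fold change -1.02, SE 0.06, adjusted p 1.80e-10). PDGFRA fell from 6465 ± 643 to 4123 ± 59.1 (-0.64) and IGF1R from 2431 ± 138 to 1637 ± 42.9 (-0.57). EGFR had 3116, 1914 and 3596 in the proliferating libraries, the second of them lowest, and 2880.4, 3027 and 3291 in the senescent libraries. It did not pass the test (0.14, adjusted p 0.577, and -0.13, adjusted p 0.549, without that library). Of the Eph family, 12 tested of 22 listed, 4 were higher, 2 lower and 6 not called. EPHA4 rose from 424 ± 53.2 to 977 ± 29.8 (1.21) and EPHB4 fell from 1405 ± 74.7 to 847 ± 33.3 (-0.73).

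The TNF receptor superfamily passed the test in all 18 tested genes of 29 listed, beside 72.4% of all tested genes, with 14 higher and 4 lower (median 1.27). Among its 15 genes with a mean of at least 50, 11 were higher and 4 lower (median 0.85). Several of its death receptors are known p53 targets and stand on the secretory and p53 list. TNFRSF10C (8794), a decoy receptor for the death ligand TRAIL, had 11.4, 14.4 and 19.0 normalized counts in proliferating and 273, 257 and 312 in senescent libraries (log2 fold change 4.17, SE 0.17, adjusted p 8.07e-12). The signalling TRAIL receptors TNFRSF10A (1.87) and TNFRSF10B (1.48), FAS (1.84), and EDA2R (1.85), a receptor for ectodysplasin, rose too. TNFRSF19 fell from 1916 ± 165 to 843 ± 38.01 (-1.18) and TNFRSF12A, the receptor for TWEAK, from 3622 ± 374 to 2466 ± 109.7 (-0.55).

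**Figure D3:**
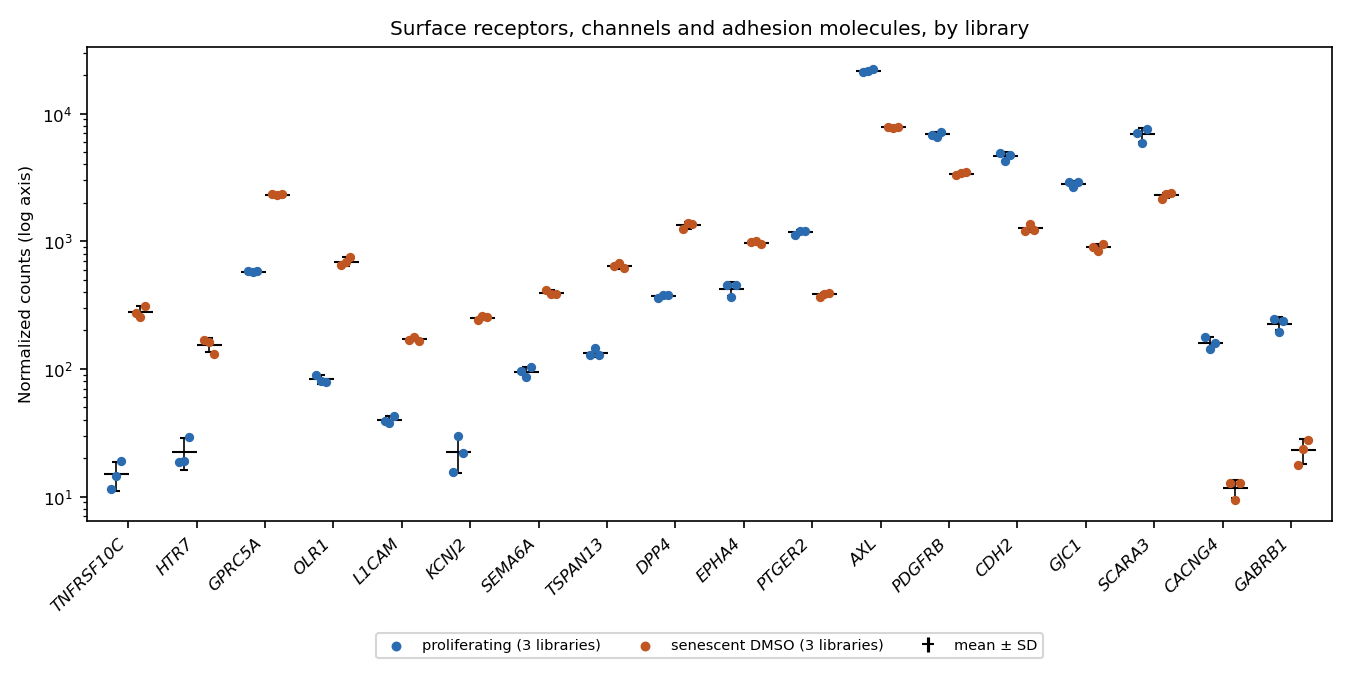
Normalized counts (log axis) of 18 genes for surface receptors, channels, adhesion molecules and a surface protease in the 3 proliferating (blue) and 3 senescent DMSO (orange) libraries, with the mean and SD of each group as black marks. TNFRSF10C to EPHA4 are higher in senescent cells and PTGER2 to GABRB1 lower, with no overlap between groups.

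Adhesion molecules changed their mix. Of 80 listed adhesion molecules of the immunoglobulin family 38 were tested, 20 higher and 11 lower (median 0.35, and 0.12 over those with a mean of at least 50). L1CAM (3897), a neural adhesion molecule, had 39.4, 37.7 and 42.9 normalized counts in proliferating and 167, 176 and 167 in senescent libraries (log2 fold change 2.06, SE 0.11, adjusted p 1.27e-10). FLRT3 rose from 19.98 ± 5.80 to 157 ± 24.1 (2.94) and the tight junction protein F11R from 5.43 ± 2.25 to 67.6 ± 11.8 (3.47), while ALCAM (-0.50) and MCAM (-0.59) fell. F11R had a mean under 10 in proliferating cells and passed the filter through the irradiated groups. Cadherins and protocadherins, 54 tested of 110 listed, were higher for 17 and lower for 14, with a median of 0.19. Under quantile normalization the counts were 13 and 14 (median -0.11), at a mean of at least 50 they were 10 and 12 (median -0.07), and without the second proliferating library 14 and 16. CDH2 (1000), the N-cadherin of mesenchymal cells, had 4928, 4251 and 4712 and 1209.6, 1374 and 1218 (log2 fold change -1.87, SE 0.07, adjusted p 3.63e-12), and PCDH7 and DCHS1 fell by 1.41 and 1.34 on the log2 scale. CLSTN3 rose from 262 ± 33.5 to 653 ± 24.97 (1.32). Of 24 listed gap junction genes 8 were tested, 2 higher and 3 lower (median 0.33), and 5 higher and 2 lower at the same total. Under quantile normalization 1 was higher and 2 lower (median -0.0056). GJD3 rose from 51.6 ± 13.01 to 226 ± 29.7 (2.13), while GJC1 (10052), connexin 45, had 2903, 2665 and 2898 and 902, 843 and 954 (log2 fold change -1.65, SE 0.06, adjusted p 2.22e-12), and GJA1, connexin 43, fell from 6112 ± 298 to 4032 ± 65.4 (-0.60).

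Guidance molecules known from axon growth, 39 tested of 53 listed, were higher for 20 and lower for 12 (median 0.33). SEMA6A (57556), a membrane semaphorin, had 95.5, 86.5 and 104 normalized counts in proliferating and 415, 384 and 387 in senescent libraries (log2 fold change 2.04, SE 0.10, adjusted p 2.78e-11). PLXNA3, a plexin that serves as semaphorin receptor, rose from 1203 ± 83.0 to 3041 ± 92.3 (1.34), whereas the neuropilins NRP1 (-0.73) and NRP2 (-1.03) fell. NTN4, a netrin of the basement membrane, fell from 3109 ± 59.3 to 956 ± 36.4 (-1.70).

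Lipoprotein and scavenger receptors, 25 tested of 39 listed, were higher for 11 and lower for 8 (median 0.12), and for 9 and 10 without the second proliferating library. OLR1 (4973), the receptor for oxidised low-density lipoprotein, had 90.3, 79.9 and 79.0 normalized counts in proliferating and 646, 683 and 750.5 in senescent libraries (log2 fold change 3.05, SE 0.08, adjusted p 3.32e-14). CD68, a lysosomal scavenger receptor best known from macrophages, rose from 549 ± 12.5 to 1232 ± 46.8 (1.16), and LRP1 from 14743 ± 2065 to 22588 ± 529.8 (0.62). SCARA3 (51435), a scavenger receptor of the stress response, had 7018, 5936 and 7626 and 2146, 2339 and 2369 (log2 fold change -1.58, SE 0.08, adjusted p 1.00e-10). Of 23 tested tetraspanins of 33 listed 13 were higher and 4 lower (median 0.31), led by TSPAN13 (134.2 ± 9.63 to 643 ± 32.7, 2.25). CD9 rose from 1741 ± 45.6 to 3017 ± 142 (0.79).

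Among mesenchymal transcription factors the largest decrease was in PRRX1. PRRX1 (5396), a homeobox factor of connective tissue, had 2708, 2380 and 2829 normalized counts in proliferating and 513, 469 and 546 in senescent libraries (log2 fold change -2.37, SE 0.08, adjusted p 6.45e-13). MEIS1 and MEIS2 fell by 1.20 and 1.34 on the log2 scale. Over the whole list of mesenchymal homeobox and T-box genes 13 were higher and 15 lower of 40 tested, with a median of -0.11 that became 0.12, with 17 higher and 10 lower, at the same total. TCF21, a factor of lung fibroblast precursors, rose from 604 ± 55.6 to 1182 ± 28.3 (0.97), and TWIST1 and TWIST2 fell by 1.21 and 1.28 on the log2 scale. HOX genes record position along the body axis. Of 15 tested of 39 listed, 5 were higher and 3 lower (median -0.01), and 6 higher and 2 lower at the same total (median 0.22). Under quantile normalization 2 were higher and 3 lower (median -0.10). Of the lower genes 1 changed by at least 2-fold, HOXA3 (249 ± 50.4 to 112 ± 5.04, -1.13).

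Forkhead factors, 20 tested of 52 listed, were lower for 11 and higher for 2 (median -0.40, and 10 lower against 6 higher at the same total). FOXM1 (2305), the factor of mitotic genes and a member of the cell cycle list, had 4406, 4142 and 4742 normalized counts in proliferating and 540.5, 581 and 547 in senescent libraries (log2 fold change -2.99, SE 0.10, adjusted p 6.83e-13). FOXD1 and FOXP1 fell by 0.56 and 0.59 on the log2 scale. Factors of the ETS, RUNX, GATA, NFI, TEAD, MEF2 and CEBP families, 54 tested of 70 listed, were lower for 32 and higher for 11 (median -0.31). ETS1 (2113) had 5058, 4229 and 5366 and 1958, 1971 and 2076 (log2 fold change -1.28, SE 0.07, adjusted p 3.75e-10), TEAD4 fell from 491 ± 43.4 to 157 ± 21.4 (-1.64), and MYOCD, a coactivator of smooth muscle genes, from 747 ± 102 to 273 ± 20.8 (-1.44). EHF (26298), an ETS factor of epithelia, was the exception at the other end. Its proliferating libraries held 3 reads or fewer each, against 86.1, 82.9 and 101 normalized counts in senescent libraries, which made it at least 29.0-fold higher (adjusted p 1.82e-09). TEAD1 did not pass the test (-0.22, adjusted p 0.0954). It passed as lower without the second proliferating library (-0.36, adjusted p 0.0057) and in a fit of the 6 libraries alone, and stood at 0.0064 at the same total. YAP and TEAD target genes, 23 tested of 24 listed, were lower for 13 and higher for 7 (median -0.28, and 9 against 8 at the same total), with ANKRD1 (2.75) and CCN1 (-0.69) on opposite sides.

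KLF4 (9314), a factor of growth arrest, had 36.3, 76.5 and 62.8 normalized counts in proliferating and 342, 361 and 345 in senescent libraries (log2 fold change 2.62, SE 0.18, adjusted p 2.94e-09), within a KLF and SP family of 18 tested of 27 listed in which 10 were lower and 2 higher (7 and 7 at the same total). Nuclear receptors, 28 tested of 46 listed, were higher for 12 and lower for 8 (median 0.04, and -0.08 over those with a mean of at least 50). NR4A3 (8013), an orphan receptor of the immediate early response, had 15.6, 11.1 and 23.8 and 205, 178 and 159.6 (log2 fold change 3.40, SE 0.21, adjusted p 7.52e-10), and its relative NR4A2 rose from 142 ± 13.2 to 489 ± 46.0 (1.77). NR3C2, the mineralocorticoid receptor, rose from 14.9 ± 3.55 to 63.1 ± 4.65 (2.03). PPARG (-0.59) and NR2F2 (-0.62) fell. HES1, a target of Notch signalling, fell from 288 ± 26.9 to 69.6 ± 12.9 (-2.04), and SOX11 from 1093 ± 74.6 to 284 ± 13.96 (-1.94). Of 358 tested zinc finger genes of the C2H2 class 118 were higher, a share near the 33% of all tested genes, and 96 lower, a share under their 39.3% (median 0.05). Of the 603 listed, 214 had no values here and 31 did not pass the filter.

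The circadian clock is a feedback loop in which CLOCK and BMAL1 drive the PER and CRY genes, whose products inhibit them. Of 24 listed clock genes 21 were tested, 6 higher and 12 lower (median -0.39, and 8 higher against 9 lower at the same total). Of the activators, CLOCK fell by 0.49 on the log2 scale, and BMAL1 rose by 0.25. Paralogous repressors changed in opposite directions. CRY2 (1408) had 292, 281 and 273 normalized counts in proliferating and 772, 704 and 767 in senescent libraries (log2 fold change 1.40, SE 0.07, adjusted p 3.07e-11), while CRY1 fell by 0.47. PER1 rose from 218 ± 10.7 to 426 ± 4.26 (0.97), while PER3 (8863) had 502, 480.2 and 555 and 241, 217 and 241 (log2 fold change -1.14, SE 0.11, adjusted p 1.73e-07). NR1D1 rose from 457 ± 11.2 to 949 ± 57.1 (1.05), and its partner NR1D2 fell from 2097 ± 186 to 1231 ± 10.9 (-0.76). BHLHE41, a repressor of the loop, rose from 54.6 ± 6.33 to 148 ± 32.9 (1.41). A single harvest gives no phase, and whether the cells were synchronous is not given in the sources used here.

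MYC and its relatives bind E-box DNA as dimers with MAX, and the MXD proteins and MNT compete with MYC for MAX. MLX and its partners respond to glucose, with TXNIP and ARRDC4 as known targets. Of 16 listed genes of this network 14 were tested, 8 higher and 4 lower (median 0.24). MYC (4609) fell from 1163 ± 60.7 to 718 ± 45.2 (-0.69). Of the competitors, MXD1 (4084) had 170.2, 159.7 and 172 normalized counts in proliferating and 539, 507 and 558 in senescent libraries (log2 fold change 1.67, SE 0.07, adjusted p 1.31e-11), MXI1 rose from 179 ± 6.55 to 493 ± 23.3 (1.45) and MXD4 from 651 ± 76.9 to 1632 ± 63.3 (1.33). MXD3, the member known from S phase and part of the cell cycle list, fell from 315 ± 51.1 to 70.3 ± 10.43 (-2.15).

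**Figure D4:**
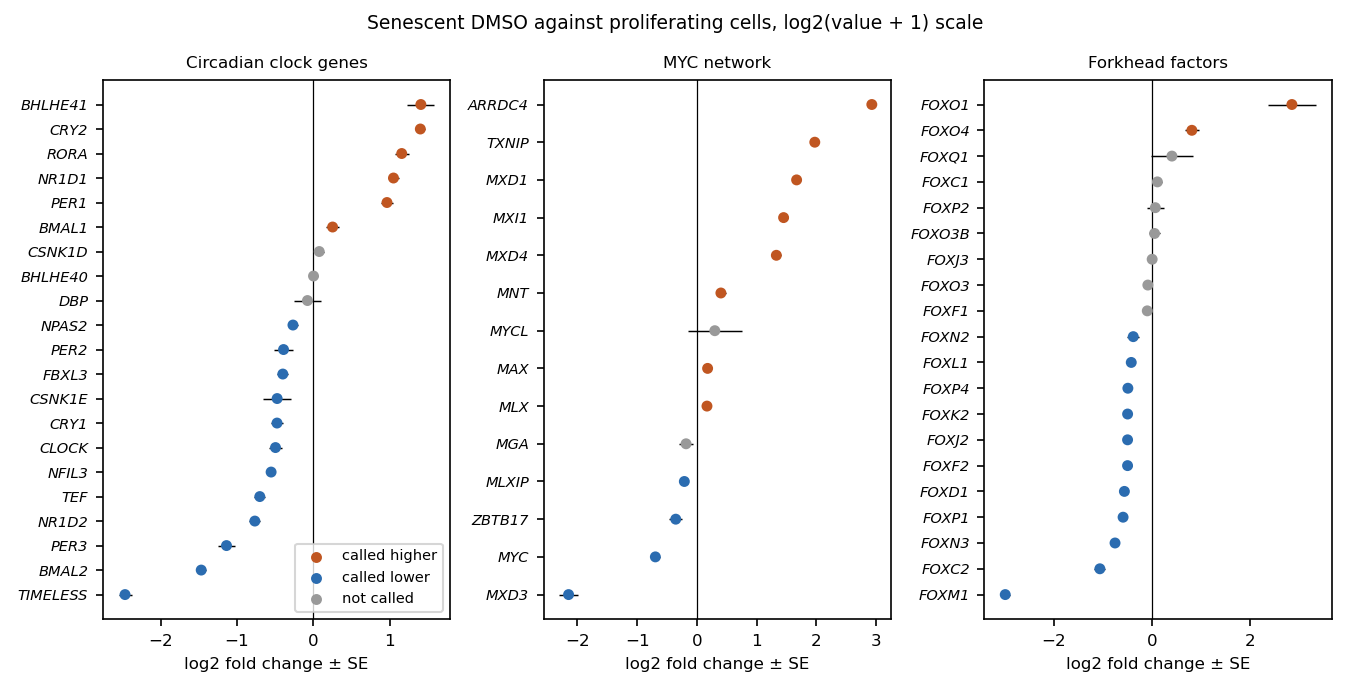
Log2 fold change (senescent DMSO against proliferating cells, log2(value + 1) scale, bars ± SE) of every tested member of the clock (21), MYC network (14) and forkhead (20) lists. Orange points were called higher, blue lower and grey not called. CRY2 and CRY1, PER1 and PER3, and NR1D1 and NR1D2 lie on opposite sides of 0.

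Clock and MYC-network proteins share a recognition sequence, the E-box CACGTG, which reads the same on both strands. The 250 bases before the RefSeq gene start (GRCh38.p14) were searched for it in the 9163 of 11242 tested genes with a promoter entry. It was present in 8.92% of them, in 5 of 19 clock genes (26.3%) and in 4 of 12 genes of the MYC network (33.3%). Other small lists varied widely, with 4 of 16 KLF and SP factors (25%), 5 of 21 glycogen enzymes (23.8%) and 0 of 22 collagen chains. Shares of this size were thus not particular to the clock and MYC lists, and differences between shares were not tested. The window of TXNIP held none, which says only that these letters are not there. Windows of 4 genes are shown on the strand of the gene, 5′ to 3′, with the E-box in capitals, because ARRDC4, PER1 and BHLHE41 rose and TEF, also of the clock list, fell (532 ± 9.87 to 328 ± 17.9, -0.70).
ARRDC4, chr15:97960453-97960702, plus strand: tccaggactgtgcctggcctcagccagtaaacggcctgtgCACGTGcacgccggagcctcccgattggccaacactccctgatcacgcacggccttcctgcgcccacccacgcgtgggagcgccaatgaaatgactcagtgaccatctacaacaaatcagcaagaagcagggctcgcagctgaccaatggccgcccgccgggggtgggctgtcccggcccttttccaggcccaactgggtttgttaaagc
PER1, chr17:8152405-8152654, minus strand: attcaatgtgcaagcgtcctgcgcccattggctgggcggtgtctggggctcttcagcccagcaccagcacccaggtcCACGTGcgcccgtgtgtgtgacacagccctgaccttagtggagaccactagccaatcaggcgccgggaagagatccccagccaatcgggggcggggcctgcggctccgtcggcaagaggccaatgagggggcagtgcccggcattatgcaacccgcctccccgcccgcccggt
BHLHE41, chr12:26125038-26125287, minus strand: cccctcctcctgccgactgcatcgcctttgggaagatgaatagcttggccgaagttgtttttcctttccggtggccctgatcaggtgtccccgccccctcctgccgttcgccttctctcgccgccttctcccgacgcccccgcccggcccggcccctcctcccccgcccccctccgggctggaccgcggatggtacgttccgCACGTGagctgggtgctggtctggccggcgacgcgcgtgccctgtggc
TEF, chr22:41367205-41367454, plus strand: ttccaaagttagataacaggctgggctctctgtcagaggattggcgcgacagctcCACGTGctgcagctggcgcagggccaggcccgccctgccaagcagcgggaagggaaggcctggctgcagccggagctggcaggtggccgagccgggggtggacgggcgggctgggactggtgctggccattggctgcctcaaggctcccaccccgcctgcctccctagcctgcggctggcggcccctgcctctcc
The match begins 210 bases before the start in ARRDC4, 173 in PER1, 48 in BHLHE41 and 195 in TEF. A match is a description of these letters, not of a bound site, and the coordinates are those of RefSeq, not of the authors' files.

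Collagens are the main fibres of connective tissue, and their genes were lower as a family. Of 44 listed collagen chains 29 were tested, 20 lower and 5 higher (median -0.94, and 19 lower against 6 higher at the same total). Their summed level ranged from 1208300 to 1247300 normalized counts in proliferating libraries and from 535290 to 543890 in senescent libraries. COL1A1 (1277), the main chain of type I collagen, had 397570, 414580 and 391820 and 166300, 167460 and 163420 (log2 fold change -1.28, SE 0.06, adjusted p 1.87e-11). Under quantile normalization, which sets the highest genes of all libraries to the same values, it stood at -0.32. COL3A1 (1281) had 49865, 50657 and 51059 and 12848, 13043 and 12724 (log2 fold change -1.97, SE 0.04, adjusted p 1.31e-14). Both fibrillar chains were lower in every senescent library, as were COL5A3 (1126 ± 35.2 to 113 ± 11.8, -3.32) and COL6A3 (182290 ± 16073 to 63135 ± 1327, -1.53). PCOLCE (5118), which enhances the cleavage of procollagens, had 3719.8, 4308 and 3689.9 and 545, 546 and 615 (log2 fold change -2.78, SE 0.09, adjusted p 2.79e-13).

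The basement membrane collagens split by chain. COL4A1 fell from 44637 ± 5048 to 19662 ± 432 (-1.18) and COL4A2 from 46914 ± 2067 to 18790 ± 513 (-1.32). COL4A5 (1287) had 1263, 1108 and 1281 normalized counts in proliferating and 2424, 2322 and 2239 in senescent libraries (log2 fold change 0.94, SE 0.07, adjusted p 1.60e-08), and COL4A6 rose from 239 ± 19.9 to 593 ± 29.1 (1.31). The chains of the classical and of the alternative type IV network thus moved in opposite directions. COL15A1 (1306), a collagen at the border of basement membranes, had 5116, 4871 and 5351 and 636, 684 and 687 (log2 fold change -2.93, SE 0.07, adjusted p 1.71e-14). NID1, the linker nidogen, fell from 8162 ± 791 to 1793 ± 27.5 (-2.18), and HSPG2, perlecan, rose from 7241 ± 1351 to 10192 ± 415 (0.51). Over 29 tested basement membrane genes of 37 listed 13 were higher and 14 lower (median -0.08, and 13 against 10 with a median of 0.15 at the same total).

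Elastic fibres consist of elastin on a scaffold of microfibrils. ELN (2006), elastin, had 1274, 1309 and 1217 normalized counts in proliferating and 104, 110.1 and 118 in senescent libraries (log2 fold change -3.51, SE 0.09, adjusted p 3.72e-14). FBLN1 fell from 5083 ± 208 to 1314 ± 32.5 (-1.95), while FBN1, the main fibrillin, did not pass the test (-0.29, adjusted p 0.0556). FBN1 was lower without the second proliferating library (-0.43, adjusted p 0.00348) and also passed as lower in a fit of the 6 libraries alone. The cross-linking enzymes LOX and LOXL4 rose, from 22028 ± 1882 to 31241 ± 743 (0.51) and from 238 ± 24.6 to 519.7 ± 73.4 (1.12). Among latent TGF-beta binding proteins LTBP3 rose (1.10) and LTBP4 fell (-0.99). The list of 29 tested genes of 32 was lower for 13 and higher for 9, with a median of -0.21 that became 0.02, with 10 lower and 12 higher, at the same total.

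**Figure D5:**
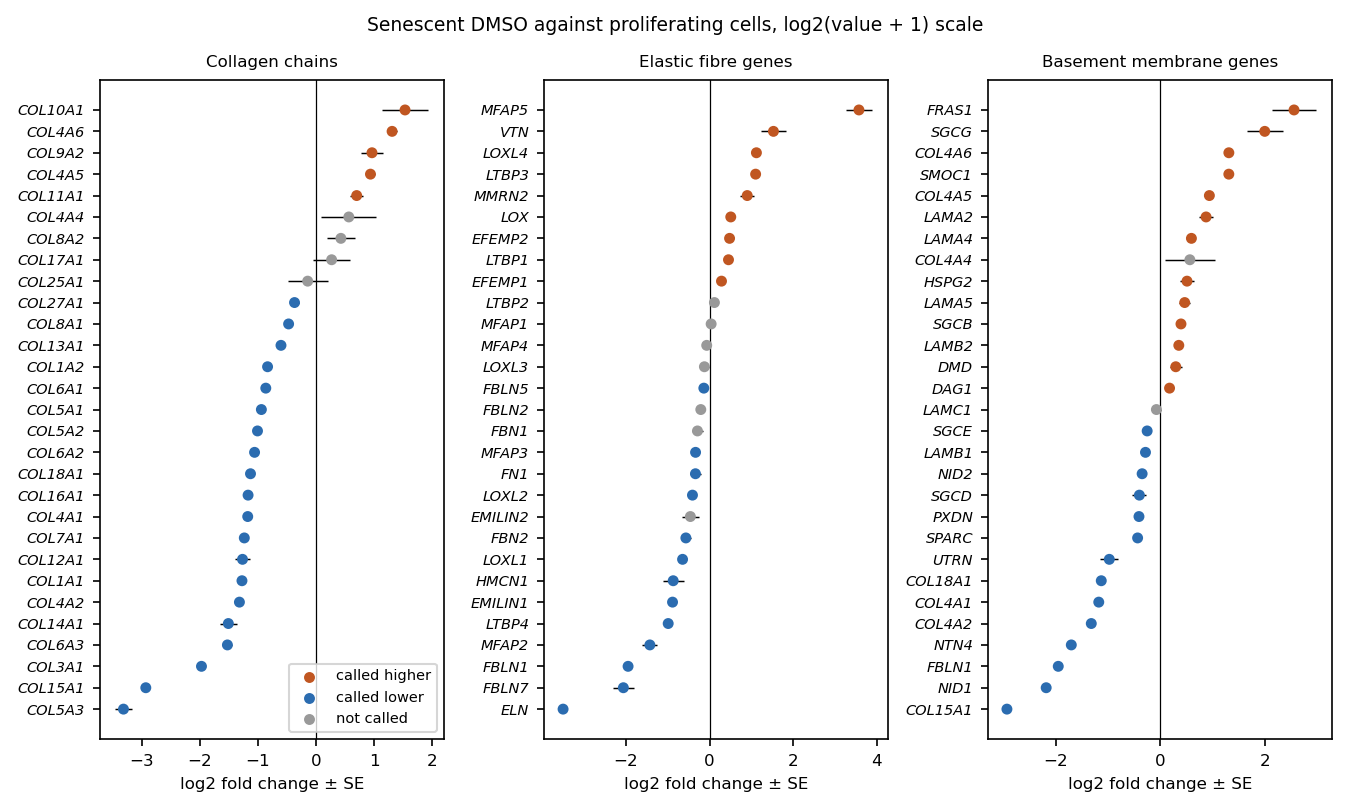
Log2 fold change (senescent DMSO against proliferating cells, log2(value + 1) scale, bars ± SE) of every tested member of the collagen (29), elastic fibre (29) and basement membrane (29) lists. Orange points were called higher, blue lower and grey not called. ELN is the lowest of the elastic fibre list, and COL4A5 and COL4A6 lie opposite to COL4A1 and COL4A2.

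Integrins and laminins, 26 tested of 38 listed, were higher for 11 and lower for 9 (median -0.07, and 12 against 5 with a median of 0.16 at the same total). ITGA2 (3673), a collagen-binding integrin, had 8581, 6068 and 8929 normalized counts in proliferating and 15608, 15438 and 15942 in senescent libraries (log2 fold change 1.02, SE 0.13, adjusted p 4.54e-06). ITGA1, also collagen-binding, fell from 9492 ± 1871 to 4711 ± 98.4 (-0.99) and ITGA4 from 1394 ± 209.9 to 528 ± 3.06 (-1.39). LAMA3, a laminin chain best known from epithelia, rose from 20.05 ± 3.09 to 109 ± 11.1 (2.39). CD44 (960), the hyaluronan receptor, had 35720, 32428 and 36164 and 74262, 76882 and 77730 (log2 fold change 1.14, SE 0.06, adjusted p 1.07e-10), while the synthase HAS2 fell from 1831 ± 258 to 517 ± 36.1 (-1.81).

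Proteoglycans changed both in core proteins and in the enzymes of their sugar chains. The core proteins GPC6 (-2.23), BGN (-2.004), CSPG4 (-1.13) and VCAN (-0.97) fell, while HSPG2 (0.51) rose. DCN was higher too, with 11609, 12044 and 12009 in proliferating and 12686, 13337 and 13717 in senescent libraries. BGN (633), biglycan, had 2597, 2710.5 and 2608 normalized counts in proliferating and 643, 685 and 643 in senescent libraries (SE 0.06, adjusted p 2.81e-13). Large and membrane proteoglycans, 18 tested of 32 listed, were lower for 10 and higher for 4 (median -0.38), and small leucine-rich ones, 9 tested of 17, lower for 2 and higher for 4 (2 and 2 of 6 at a mean of at least 50). The large and membrane list, which holds CD44, summed to 86182 to 101880 in proliferating and 116410 to 121770 in senescent libraries. Of 41 tested enzymes of heparan and chondroitin sulfate (64 listed) 18 were higher and 15 lower (median 0.11). CSGALNACT1 (55790), which starts chondroitin chains, had 338, 373 and 338 and 1486, 1449 and 1559 (log2 fold change 2.10, SE 0.06, adjusted p 1.04e-13), and CSGALNACT2 rose from 825 ± 62.1 to 2501 ± 87.4 (1.60). CHSY1, which extends the chains, fell from 3025 ± 272 to 1143 ± 22.97 (-1.40).

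Proteases of the ADAM and ADAMTS families, 23 tested of 45 listed, were higher for 13 and lower for 7 (median 0.63, and 0.36 without the first proliferating library). ADAMTS1 (9510), which cleaves proteoglycans, had 3071, 2928 and 3137 normalized counts in proliferating and 9229, 9300.1 and 9249 in senescent libraries (log2 fold change 1.60, SE 0.05, adjusted p 1.36e-13), and ADAMTS5, an aggrecanase, rose from 290.1 ± 36.1 to 897 ± 52.2 (1.63). ADAMTS2, which trims procollagen, fell from 2017 ± 93.1 to 1066 ± 68.6 (-0.92) and ADAMTS6 from 845 ± 92.4 to 239 ± 16.0 (-1.81). The groups did not overlap for any of these 4 proteases. Among other secreted matrix partners, 36 tested of 81 listed, 15 were higher and 14 lower (median -0.004). At the same total 19 were higher and 10 lower (median 0.23), and without the second proliferating library 13 and 14. SVEP1 rose from 755 ± 111 to 2251 ± 82.7 (1.58) and OLFML3 fell from 1182 ± 17.8 to 449 ± 11.3 (-1.39).

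The same genes were read in the other irradiated groups, as means ± SD over 3 libraries and with no test here. PDE4C stood at 42.1 ± 8.07 normalized counts with palbociclib and 285 ± 13.4 with ruxolitinib, beside 233 ± 27.6 with DMSO and 3.84 ± 1.72 in proliferating cells. PPP1R3C was at 3771 ± 245 and 2350.5 ± 90.1, and ANGPTL4 at 1099 ± 154 and 687 ± 39.4. COL1A1 was at 268520 ± 7037 with palbociclib and 231250 ± 1946 with ruxolitinib, ELN at 243 ± 6.39 and 166 ± 17.4, and PRRX1 at 340.2 ± 17.5 and 434 ± 25.4. GPRC5A was at 3459 ± 171 and 2442 ± 136, and AXL at 9034 ± 194 and 7573 ± 122.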

How the data were processed

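The values are gene counts that the authors normalized and deposited in 1 table of 12 library columns, treated here as a signal. The submitters' processing notes name Trimmomatic 0.38.1, HISAT2 2.2.1, featureCounts 2.0.3, FastQC 0.74, MultiQC, DESeq2 2.11.40.8 and the builds hg38 and GRCh38, without roles. The annotation and use of strand are not given in the sources used here. Each positive value (160380 of 160380, 100%, tolerance 0.01) was an integer number of steps of 1 read in its library, so whole reads could be recovered. The table ends at Entrez gene 140467, so 4796 of 20056 RefSeq protein-coding genes, those numbered above it, were not analysed here.

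From the deposited values limma 3.58.1 (R 4.3.3) fitted 4 group means over 12 libraries to log2(value + 1), with trended moderated variances and Benjamini-Hochberg adjustment over 11242 genes. All adjusted p-values are from this fit. The fit was tested on simulated data. On the recovered reads edgeR 4.0.16 and DESeq2 1.42.0 were run as alternatives. Columns carried the group and a library number, no replicate number.

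The libraries compared and the 60 gene lists, 5 of them marker lists, were chosen with earlier results of these data known. Named genes are the 15 largest increases and decreases (mean in the higher group at least 100, outside 3 lists of interferon, cell cycle, and secretory and p53 genes), up to 6 per list and direction (mean of at least 50), all called and with groups that do not overlap, and list members that were not called. CLOCK, CRY1, CD14 and CSF1R, and the view of libraries by transcript length (GENCODE v44, 97.4% of tested genes matched), were added after values were seen. RefSeq promoters matched 9163 genes by Entrez number.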

Additional observations from a re-analysis of the deposited data

How the results depend on the processing

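Over 17 refits (pseudocounts 0.1 and 5, no filter or a mean of at least 50, 3 other scalings, limma without a trend, the 6 libraries alone, each of the 6 libraries left out, edgeR and DESeq2) the number of genes called higher ran from 3101 to 5273 and lower from 2970 to 4438, and from 3494 to 3660 and from 4173 to 4342 when 1 library was left out. Asking for a change of at least 2-fold left 1244 higher and 1010 lower. Of the 245 genes named with a test, 241 kept their direction and their side of the threshold in every refit that tested them. The exceptions were CSF1R, FBN1, TEAD1, which turned from -0.22 to 0.0064 at the same total, and EGFR, which turned from 0.14 to -0.13 without the second proliferating library and ran from -0.13 to 0.33 when 1 library was left out. Where the sign of a described list's median or the balance of its calls turned under another scaling, the values stand beside that list. Quantile normalization also shrank medians by over 1.5 times for lipid droplets (0.26), G protein-coupled receptors (0.16), aldehyde dehydrogenases and retinoid genes (0.19) and cyclic nucleotide enzymes (0.02). The same held for the tricarboxylic acid cycle (-0.07), glutamate, proline and aspartate (-0.15), branched-chain amino acid breakdown (-0.0052), receptor tyrosine kinases (-0.02) and KLF and SP factors (-0.11). It also held for YAP and TEAD targets (-0.13), large proteoglycans (-0.19), elastic fibres (-0.04), and the fibroblast (-0.36), epithelial (0.18) and endothelial (0.14) markers. Genes near the floor of 3 reads per library carry little weight. No paired analysis was possible because the columns carry no replicate numbers.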
